A study of Mus musculus with 6 samples.

Results

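Adhesion G protein-coupled receptors were followed in Py2T cells, an epithelial line from a mouse mammary gland tumour, kept under hydrogen peroxide (H2O2). The 7 receptors described are Adgre5, Adgrg1, Adgrg6, Adgrl1, Adgrl2, Adgra2 and Adgra3, of 24454 genes with a row in the deposited table and of 29 genes of the receptor family with a row. They were chosen by name with their measured CPM (a gene's reads per library, all libraries brought to the same sum) in all 3 comparisons known, so their differences are a description and carry no test. RNA of 6 libraries was sequenced, 2 for each of 3 groups. PBS cells had 0 µM H2O2, C40 cells had 40 µM each day and I60 cells had 60 µM each day, each over 4 months. The labels call the PBS cells untreated in one place. The series is described as biological duplicates, but nothing says that the 2 libraries of a group were treated apart, so that the spread may be partly technical. The labels do not give how many cultures were kept per group, and drift of a culture cannot be told apart from the effect of its treatment.

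These receptors join a long extracellular part, which holds adhesion domains, to a membrane-spanning signalling part. The GAIN domain between them cuts the chain itself in many members, and the stretch uncovered at the cut can act as a tethered agonist when a ligand or pull removes the extracellular fragment. Many members couple to the G proteins encoded by Gna12 and Gna13, which act through the exchange factors Arhgef1, Arhgef11 and Arhgef12 and so tie adhesion to the cytoskeleton. In epithelial tumours CD97 and GPR56 are among the members best known for their part in migration and in contact with the matrix.

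Promoter windows of RefSeq (GRCm38.p6, 250 bases before to 50 bases after a start site) matched 5 of the 7 receptors, with 6 windows. Adgre5 and Adgra2 were not among the matches. The windows of Adgrg1, which moved to opposite sides of PBS in the 2 treated lines, are shown with that of Adgrg6, which had next to no reads. For Adgrg1, first and second give the order of the matched windows, since the gene itself begins upstream of both, at chr8:94974756. In the Adgrg1 windows capitals mark the E-box CAGGTG or its reverse complement CACCTG, the motif of Zeb and Snail factors, and the AP-1 motif TGANTCA, searched on both strands. In the Adgrg6 window capitals mark each CG dinucleotide.
Adgrg1, first start site, chr8:94976859-94977158, plus strand: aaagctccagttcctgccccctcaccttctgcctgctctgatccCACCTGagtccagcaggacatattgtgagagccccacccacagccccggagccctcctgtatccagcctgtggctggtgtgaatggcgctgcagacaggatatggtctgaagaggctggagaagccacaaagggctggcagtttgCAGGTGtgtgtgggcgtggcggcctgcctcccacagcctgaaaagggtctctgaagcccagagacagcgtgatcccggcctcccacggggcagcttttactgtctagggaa
Adgrg1, second start site, chr8:94984149-94984448, plus strand: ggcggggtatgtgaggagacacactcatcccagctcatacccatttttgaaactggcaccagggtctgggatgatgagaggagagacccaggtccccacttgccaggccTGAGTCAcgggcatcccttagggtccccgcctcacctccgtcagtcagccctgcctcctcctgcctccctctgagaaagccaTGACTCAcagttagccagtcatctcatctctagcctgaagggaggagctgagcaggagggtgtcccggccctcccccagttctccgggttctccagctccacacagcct
Adgrg6, chr10:14544987-14545286, minus strand: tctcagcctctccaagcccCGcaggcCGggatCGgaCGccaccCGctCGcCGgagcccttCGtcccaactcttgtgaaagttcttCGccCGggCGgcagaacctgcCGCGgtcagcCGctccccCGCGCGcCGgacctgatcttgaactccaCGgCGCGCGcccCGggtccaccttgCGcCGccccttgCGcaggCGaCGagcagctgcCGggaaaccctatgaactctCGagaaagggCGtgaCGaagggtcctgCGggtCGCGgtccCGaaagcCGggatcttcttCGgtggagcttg
The first Adgrg1 window held 2 E-boxes, beginning at -206 and -61 from the start site, and the second held 2 AP-1 motifs, beginning at -141 and -59. Over all 32851 windows of the table, 20.2% held the E-box, 7.81% the AP-1 motif and 12.4% the core of the antioxidant response element, TGACNNNGC. That core, which can overlap an AP-1 motif, was not found in the Adgrg1 windows or in any other window of the receptors. The Adgrg6 window held 38 CG dinucleotides against a median of 7 over all windows. The windows of Adgra3 and Adgrl1, both well expressed here, held 34 and 28. A match describes the letters of a window only.

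Depth, recovered from the CPM steps, lay between 48113692 and 60260520 reads; 1 read was worth 0.0166 to 0.0208 CPM. The C40 libraries stood further apart than the others, with 1022 genes over 2-fold apart between replicates, against 223 in PBS and 217 in I60. Of 9 epithelial markers, 8 reached 1 CPM in both PBS and in both C40 libraries, but in I60 cells 3 did (Krt7, Krt8 and Krt18), so that the epithelial label goes against most of its markers there. Cdh1, the cadherin that defines epithelia, was measured at 529 and 537 CPM in PBS cells, 59.7 and 87.8 CPM in C40 cells, and 0.187 and 0.129 CPM in I60 cells. Epcam averaged 358 CPM in PBS cells, 47.2 CPM in C40 cells and 0.899 CPM in I60 cells, and Cldn7 was at 0 in I60 cells. Carried by the keratins, the 9 genes summed to 7091 and 7647 CPM in PBS cells, 3814 and 3586 CPM in C40 cells, and 3154 and 3091 CPM in I60 cells. Mesenchymal markers (8 genes, Vim and Zeb1 among them) summed to 1206 and 1778 CPM in PBS cells, 8779 and 13481 CPM in C40 cells, and 5560 and 7426 CPM in I60 cells. Fn1 made up most of the PBS and C40 sums, averaging 1422, 7773 and 1613 CPM in PBS, C40 and I60 cells, whereas Vim averaged 29.6, 2642 and 4026 CPM. Vim, Sparc and Col5a1 averaged higher in I60 than in C40 cells, and Fn1, Cdh2, Zeb1, Pdgfrb and Col1a1 lower. The epithelial and mesenchymal sums move with several receptors described here, and their part in those results was not tested. In bulk RNA, fewer cells with a transcript and less transcript per cell cannot be told apart.

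Adgre5 and Adgrg1 lay on opposite sides of PBS in the treated lines: both were lower than PBS in C40 cells and higher than PBS in I60 cells. Adgre5 encodes CD97, a receptor of leukocytes and of many carcinomas that binds CD55, Thy1 and integrins; it lies at chr8:83723245-83741311 on the minus strand. Adgre5 was measured at 1.35 and 0.647 CPM in PBS cells, 0.104 and 0.129 CPM in C40 cells, and 19.5 and 30.2 CPM in I60 cells. The 3 groups did not overlap, with both C40 libraries lowest and both I60 libraries highest. On the log2(CPM + 0.5) scale, which understates changes of low genes, the difference was -1.24 in C40 against PBS and 4.09 in I60 against PBS (SE 0.33 each). The pooled reads of the groups were 12 in C40 and 116 in PBS, a ratio of 0.119 (95% counting interval 0.0595 to 0.215) per read sequenced, and 2676 in I60, a ratio of 25.2 to PBS (20.9 to 30.6). Such intervals cover counting error only, not the spread between cultures. Leukocyte markers (7 genes) summed to 33.0 and 34.3 CPM in PBS cells, 31.8 and 31.9 CPM in C40 cells, and 50.04 and 62.5 CPM in I60 cells, with 4 of 7 under 1 CPM in every library and Cd3e at 0. The others did not move together: in PBS, C40 and I60 cells Cd68 averaged 4.64, 3.91 and 22.1 CPM, Csf1r 16.0, 4.36 and 12.9 CPM, and Cd14 12.6, 23.5 and 21.3 CPM.

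Adgrg1 encodes GPR56, a receptor for collagen III and transglutaminase 2 that shapes the developing cortex and restrains melanoma spread in mouse models; it lies at chr8:94974756-95014208 on the plus strand and its promoter windows are those printed above. Adgrg1 was measured at 1.19 and 0.88 CPM in PBS cells, 0.395 and 0.11 CPM in C40 cells, and 3.31 and 3.98 CPM in I60 cells. Its groups did not overlap either, and their order was that of Adgre5, over a narrower range. The log2 difference was -1.05 in C40 against PBS and 1.44 in I60 against PBS (SE 0.28 each). Pooled reads were 25 in C40 and 121 in PBS, a ratio of 0.237 (0.147 to 0.366), and 393 in I60, a ratio of 3.54 to PBS (2.88 to 4.38).

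Set directly against each other, I60 cells held 5.33 log2 units more Adgre5 than C40 cells (SE 0.33) and 2.48 more Adgrg1 (SE 0.28). In pooled reads these were ratios of 212 (121 to 411) for Adgre5 and 14.96 (9.98 to 23.4) for Adgrg1. The C40 values rest on 12 and 25 reads, and with any 1 library left out the log2 difference of C40 against PBS ran between -1.58 and -0.90 for Adgre5 and between -1.32 and -0.77 for Adgrg1. With any 1 library left out, the I60 against C40 difference stayed between 5.02 and 5.64 for Adgre5 and between 2.21 and 2.76 for Adgrg1, and the I60 against PBS difference between 3.74 and 4.43 for Adgre5 and between 1.29 and 1.58 for Adgrg1. The comparisons of C40 and of I60 with PBS share the PBS libraries, so their values are set side by side only.

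**Figure D1:**
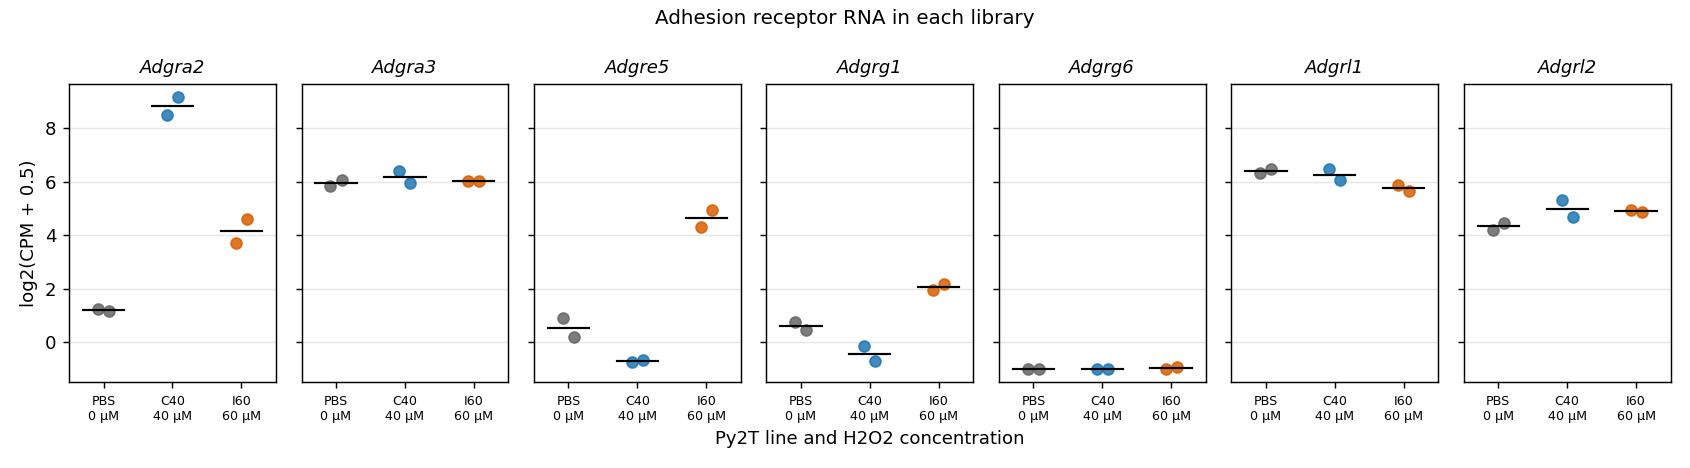
CPM of each of the 7 receptors in each of the 6 libraries (points; log scale), with PBS, C40 and I60 in order of H2O2 dose. Adgre5 and Adgrg1 are lowest in C40 and highest in I60, Adgra2 is highest in C40, and Adgrg6 has 1 read in 1 I60 library.

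Adgra2 in C40 cells stood farthest from PBS of the 7 receptors, and the order of its groups differed from that of Adgre5 and Adgrg1. It encodes GPR124, which with the anchored protein Reck serves as a co-receptor for Wnt7a and Wnt7b in brain blood vessels, and lies at chr8:27085520-27123436 on the plus strand. Adgra2 was measured at 1.86 and 1.76 CPM in PBS cells, 358 and 574 CPM in C40 cells, and 12.6 and 23.8 CPM in I60 cells. No 2 groups overlapped, and C40 libraries were highest, with I60 libraries between C40 and PBS. The log2 difference was 7.62 in C40 against PBS, 2.95 in I60 against PBS and -4.67 in I60 against C40 (SE 0.35 each), or 197-fold higher in C40 than in PBS and 7.74-fold higher in I60 than in PBS. Without 1 library at a time, the C40 against PBS difference ran between 7.28 and 7.96. Endothelial markers, of the cell type in which Adgra2 is best known, summed to 0.298 and 0.0996 CPM in PBS cells, 1.23 and 1.10 CPM in C40 cells, and 0.150 and 0.166 CPM in I60 cells, with all 6 under 1 CPM in every library. Fibroblast markers (5 genes) summed to 6.77 and 5.86 CPM in PBS cells, 46.6 and 31.5 CPM in C40 cells, and 11.5 and 19.8 CPM in I60 cells, with Lum and Fap at 0, and their part in the Adgra2 values was not tested.

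The latrophilins Adgrl1 and Adgrl2, which bind teneurins and FLRT proteins across cell contacts, moved by under 1 log2 unit. Neuron markers (5 genes), of the cells in which latrophilins are best known, summed to 12.4 and 2.37 CPM in PBS cells, 35.4 and 30.1 CPM in C40 cells, and 1.91 and 3.45 CPM in I60 cells. Tubb3 carried these sums, averaging 6.40, 32.5 and 2.67 CPM in PBS, C40 and I60 cells. Syt1 fell instead, averaging 0.992, 0.108 and 0.00921 CPM, and 3 of 5 were under 1 CPM in every library. Adgrl1 (chr8:83900098-83941954, plus strand) was measured at 79.1 and 88.2 CPM in PBS cells, 88.9 and 65.8 CPM in C40 cells, and 58.5 and 49.6 CPM in I60 cells. I60 libraries lay below all others, while C40 libraries spanned the PBS range. The log2 difference was -0.13 in C40 against PBS, -0.63 in I60 against PBS and -0.50 in I60 against C40 (SE 0.21 each). Adgrl2 (chr3:148815586-148989096, minus strand) was measured at 17.9 and 21.7 CPM in PBS cells, 39.3 and 25.1 CPM in C40 cells, and 30.3 and 28.4 CPM in I60 cells. All 4 treated libraries lay above both PBS libraries, and the I60 values fell inside the C40 range. The log2 difference was 0.66 in C40 against PBS, 0.56 in I60 against PBS and -0.10 in I60 against C40 (SE 0.26 each).

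Adgra3 encodes GPR125, a relative of Adgra2 that takes part in planar polarity in zebrafish and binds Dlg1, and lies at chr5:49959951-50058996 on the minus strand. Adgra3 was measured at 57.1 and 67.3 CPM in PBS cells, 83.6 and 61.4 CPM in C40 cells, and 64.0 and 64.5 CPM in I60 cells. All 3 groups overlapped, and the log2 difference was 0.21 in C40 against PBS, 0.05 in I60 against PBS and -0.16 in I60 against C40 (SE 0.21 each). Adgrg6 encodes GPR126, which Schwann cells need to make myelin and which binds collagen IV, laminin and the prion protein; it lies at chr10:14402583-14545723 on the minus strand. Adgrg6 had 1 read, in I60 replicate 2, and 0 in the other 5 libraries. A count of 0 allows up to 3 reads over a group, which is 0.0256 CPM in PBS cells and 0.0293 CPM in C40 cells, so no fold is given. The nearest genes with a row, Hivep2 at 251205 bases and Vta1 at 109037 bases, averaged 66.2 and 50.1 CPM in PBS cells.

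**Figure D2:**
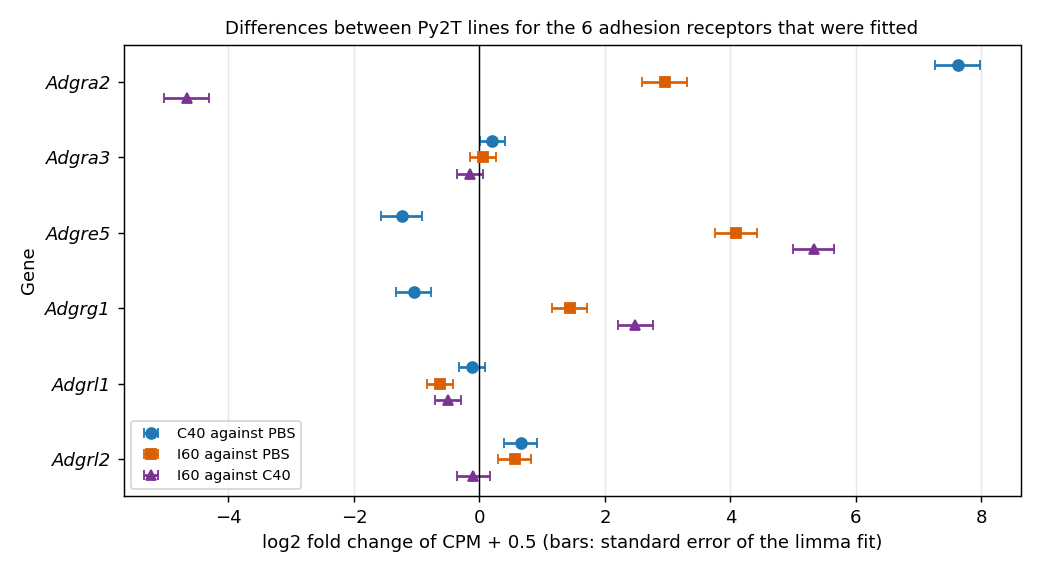
log2 fold change of CPM + 0.5 for the 6 receptors that passed the filter, in C40 against PBS, I60 against PBS and I60 against C40; bars are the standard error of the limma fit over all 6 libraries. Adgre5 and Adgrg1 lie on opposite sides of 0 in C40 and I60, Adgra2 lies above 0 in both, and Adgra3 lies close to 0 in all 3.

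Of the 7 receptors 6 passed the filter of 1 CPM in 2 libraries, where Adgre5 and Adgrg1 passed through groups in which they were high. At an adjusted p below 0.05 in limma, 1 of 6 was called higher in C40 than in PBS (Adgra2) and 2 lower (Adgre5 and Adgrg1), beside 11.2% of 11524 genes tested called higher and 9.02% lower. In I60 against PBS 3 of 6 were called higher (Adgre5, Adgrg1 and Adgra2), beside 13.9% of all genes higher and 13.1% lower. In I60 against C40 2 were called higher (Adgre5 and Adgrg1) and 1 lower (Adgra2), beside 3.51% of all genes higher and 5.73% lower. The 2 lower calls in C40 became 0 or 1 with any library left out, and the 3 higher calls in I60 against PBS became 2 without I60 replicate 2 or PBS replicate 2, where Adgrg1 was no longer called. Because these comparisons chose the receptors, nothing is read from those counts. Their median log2 difference was 0.04 in C40 against PBS, 0.999 in I60 against PBS and -0.13 in I60 against C40, beside -0.02, -0.002 and 0.02 over all genes tested.

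Levels were compared between receptors as CPM per kb of merged exons, since CPM alone grows with transcript length. In PBS cells the order was Adgrl1 (9.74 CPM per kb), Adgra3 (7.66), Adgrl2 (1.39), Adgra2 (0.313), Adgre5 (0.265), Adgrg1 (0.191) and Adgrg6. The libraries of Adgrl1 and Adgra3 did not overlap, while Adgre5, at 0.359 and 0.172 CPM per kb, overlapped with both Adgra2 and Adgrg1. In C40 cells Adgra2 led with 80.7 CPM per kb, followed by Adgrl1 (9.01) and Adgra3 (8.94), which did not differ beyond their replicate spread, then Adgrl2 (2.27), Adgrg1 (0.047) and Adgre5 (0.031), whose libraries overlapped. In I60 cells Adgra3 came first (7.92 CPM per kb), then Adgre5 (6.60) and Adgrl1 (6.29), and the Adgre5 libraries, at 5.18 and 8.03 CPM per kb, overlapped with both others. Adgra2 (3.15 CPM per kb), Adgrl2 (2.06) and Adgrg1 (0.673) followed without overlap.

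Adgra2 made up 1.07% and 0.972% of the summed CPM per kb of the 29 family genes in PBS cells, 66.7% and 78.3% in C40 cells, and 8.2% and 12.98% in I60 cells. The family sum was 30.1 and 31.3 CPM per kb in PBS cells, 93.0 and 127 in C40 cells, and 26.6 and 31.8 in I60 cells. Adgrl1 was the most abundant family gene in both PBS libraries and Adgra2 in both C40 libraries. Of the I60 libraries, Adgra3 led in the first and Adgre5 in the second.

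**Figure D3:**
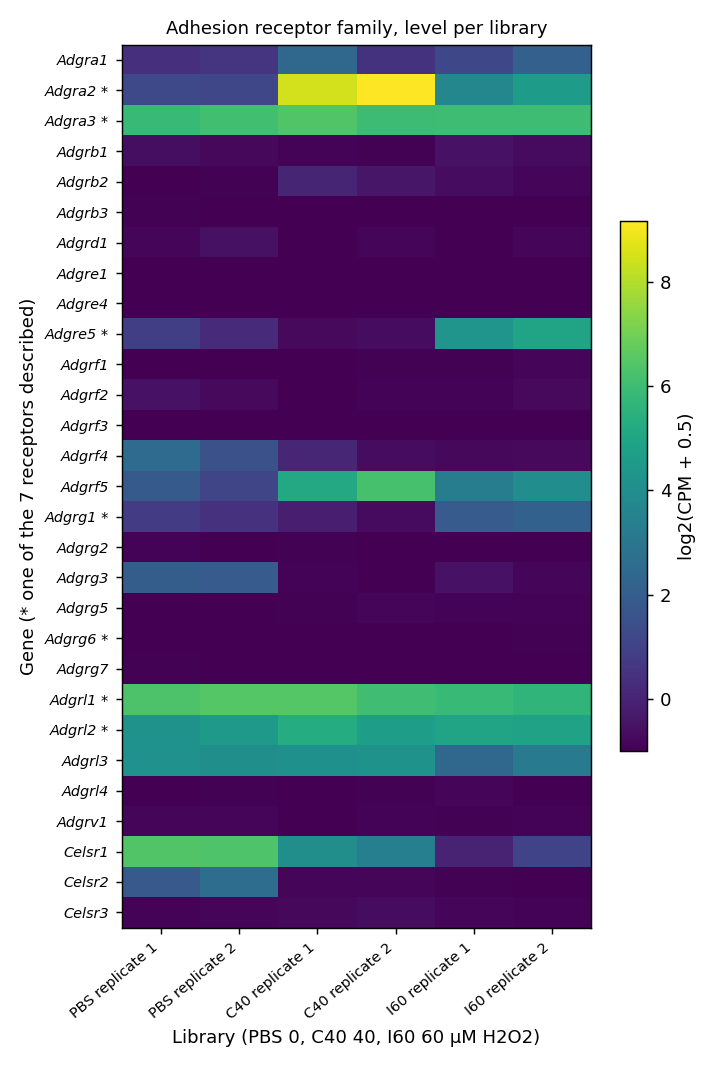
Heatmap of log2(CPM + 0.5) for the adhesion receptor family genes (rows) in the 6 libraries (columns, in order of H2O2 dose). Adgra2 and Adgrf5 are highest in C40, Celsr1 is lower in both treated lines, and most family genes are close to 0 CPM throughout.

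Of the 7 receptors 4 lie on chromosome 8. Adgre5 and Adgrl1 are neighbours there, with 158787 bases and 0 genes with a row between them, and their values ran apart: Adgre5 was highest in I60 cells, where Adgrl1 was lowest. Adgrg1 lies 31463 bases from Adgrg5, which had under 1 CPM in all libraries, and 2905 bases from Adgrg3 (GPR97, a receptor of neutrophils), both on its strand. Adgrg3 averaged 3.42 ± 0.14 CPM in PBS cells, 0.0208 ± 0.0294 CPM in C40 cells and 0.140 ± 0.0936 CPM in I60 cells (SD, n = 2 each, as for all means ± SD that follow), so that in I60 cells it was below PBS while Adgrg1 was above.

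Adgre5 overlaps the helicase gene Ddx39a, on the other strand in GENCODE, over 3660 bases, with 895 exon bases shared, and whether the counting used strand is not known. Ddx39a averaged 340 CPM in PBS cells, 264 CPM in C40 cells and 263 CPM in I60 cells. In C40 cells Adgre5 stood at 0.104 and 0.129 CPM beside that level of Ddx39a. The neighbours of Adgra2 moved less than it did: Plpbp averaged 81.9, 96.7 and 86.8 CPM in PBS, C40 and I60 cells, Rab11fip1 65.9, 41.2 and 34.8 CPM, and Brf2, whose end overlaps that of Adgra2, 16.1, 16.6 and 16.3 CPM.

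The genes whose pattern was most like each receptor were found by Pearson's r of log2(CPM + 0.5) over the 6 libraries, which form 3 groups of 2 and share their groups, so that r is a description. Adgre5 was most like the histone gene Macroh2a3 (r = 0.998; PBS 0.996 CPM, C40 0.373 CPM, I60 13.9 CPM) and the ubiquitin ligase gene Rnf144b (r = 0.995). Adgrg1 was most like the creatine kinase gene Ckb (r = 0.998; PBS 5.83 CPM, C40 2.19 CPM, I60 17.6 CPM) and the phosphatase gene Ptprj (r = 0.996). Adgra2 was most like Zfp532 and Dpysl3 (r = 0.996 each), of which Dpysl3 averaged 0.0861 CPM in PBS cells, 182 CPM in C40 cells and 7.57 CPM in I60 cells. For the steadier receptors these genes were Bin1 (r = 0.991) and St13 (r = 0.988) for Adgrl1, Ap2a1 (r = 0.997) and B9d1 (r = 0.992) for Adgrl2, and Fzd2 (r = 0.987) and Smad6 (r = 0.977) for Adgra3. Among the family, Adgre5 and Adgrg1 had r = 0.966 with each other, and Adgra2 had r = 0.977 with Adgrf5.

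Of the 23 other genes listed for the family, 22 had a row and 7 passed the filter. In C40 against PBS limma called 1 of 7 higher and 4 lower, and in I60 against PBS 1 higher and 5 lower; in I60 against C40 3 were lower and 4 did not pass. Of all genes tested, 11.2% were higher and 9.02% lower in C40 against PBS, 13.9% and 13.1% in I60 against PBS, and 5.73% lower in I60 against C40. The median log2 difference of the 7 was -2.32 in C40 against PBS, -2.62 in I60 against PBS and -0.49 in I60 against C40, beside -0.02, -0.002 and 0.02 over all genes tested. Celsr2, Adgrf4 and Adgrg3 reached 1 CPM in PBS libraries only, so against PBS they could only be called lower. With a filter of 5 CPM, 1 was called lower in C40 against PBS and 2 in I60 against PBS. Nothing is therefore read from the lower counts and the medians against PBS.

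Adgrf5, which encodes GPR116, a regulator of lung surfactant, followed the order of Adgra2. It was measured at 3.22 and 1.71 CPM in PBS cells, 34.9 and 74.4 CPM in C40 cells, and 9.06 and 15.2 CPM in I60 cells. The groups did not overlap. It rose by 4.17 log2 units in C40 against PBS (limma adjusted p = 0.00111) and by 2.09 in I60 against PBS (limma adjusted p = 0.0146), and was 2.07 log2 units lower in I60 than in C40 (log2 difference -2.07, limma adjusted p = 0.0332). Without I60 replicate 2 or PBS replicate 2 the I60 call was lost (limma adjusted p = 0.117 and 0.105), and the I60 against C40 call was lost with any library left out other than C40 replicate 1 (limma adjusted p of 0.0657 to 0.243).

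Celsr1, which encodes a planar polarity cadherin of epithelia, fell in steps. It was measured at 83.7 and 82.4 CPM in PBS cells, 15.5 and 10.0 CPM in C40 cells, and 0.468 and 1.55 CPM in I60 cells. The groups did not overlap. It fell by 2.68 log2 units in C40 against PBS (limma adjusted p = 0.00387), fell by 5.89 in I60 against PBS (limma adjusted p = 7.14e-05) and fell by 3.21 in I60 against C40 (limma adjusted p = 0.00306). Its relative Celsr2 averaged 4.42 ± 1.89 CPM in PBS cells, against 7 reads in both C40 libraries together and 1 in both I60 libraries. Celsr2 passed the filter through PBS libraries only, so its calls against PBS could only be lower and are not read as a test. The Celsr2 reads of PBS exceeded those of I60 480-fold (95% counting interval 85.7 to 18982).

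Adgrf4 averaged 3.85 ± 2.11 CPM in PBS cells, 0.345 ± 0.306 CPM in C40 cells and 0.0835 ± 0.0122 CPM in I60 cells. Adgrg3 was lower in both treated lines as well, and with 2 reads in C40 cells its PBS reads exceeded those of C40 175-fold (48.1 to 1450). Adgrf4 and Adgrg3 passed the filter through PBS libraries only, so their lower calls against PBS are not read as a test. The latrophilin Adgrl3 averaged 16.8 ± 0.703 CPM in PBS cells, 17.4 ± 0.805 CPM in C40 cells and 6.83 ± 2.85 CPM in I60 cells (SD, n = 2 each). It fell by 1.29 log2 units in I60 against PBS (limma adjusted p = 0.0199) and fell by 1.34 in I60 against C40 (limma adjusted p = 0.0377), calls that were lost without I60 replicate 1 or either PBS library (limma adjusted p of 0.0981 to 0.133 for I60 against PBS). Adgra1 averaged 0.90 ± 0.135 CPM in PBS cells, 2.84 ± 2.74 CPM in C40 cells and 2.85 ± 1.44 CPM in I60 cells and passed in no comparison (limma adjusted p of 0.197 to 0.877).

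Ligands and partners of the receptors were read from the same fit, with 25 of 35 listed genes passing the filter. In C40 against PBS limma called 7 higher, 5 lower and 13 neither; in I60 against PBS 7 higher, 7 lower and 11 neither; and in I60 against C40 2 lower and 23 neither. The median log2 difference of the 25 was 0.13 in C40 against PBS, 0.20 in I60 against PBS and -0.45 in I60 against C40, with the shares and medians over all genes as given for the family. Col3a1, Tenm3 and Reck reached 1 CPM in treated libraries only, so against PBS they could only be called higher. Their calls against PBS are part of the higher counts and are not read as a test.

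For CD97, the ligand Cd55 was under 1 CPM in every library and Thy1 was at 0. The integrin subunit Itga5 averaged 79.4 ± 12.9 CPM in PBS cells, 325 ± 50.1 CPM in C40 cells and 441 ± 66.6 CPM in I60 cells, and rose by 2.03 log2 units in C40 (limma adjusted p = 0.000827) and by 2.47 in I60 (limma adjusted p = 0.000188). Its partner Itgb1 averaged 768 ± 95.9 CPM in PBS cells, 718 ± 146 CPM in C40 cells and 406 ± 65.2 CPM in I60 cells, and was lower in I60 than in PBS (log2 difference -0.92, limma adjusted p = 0.0192). So Itga5 rose in both lines, whereas Adgre5 lay on opposite sides of PBS.

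For GPR56, the ligand gene Col3a1 had 1 read in both PBS libraries together, and was measured at 575 and 122 CPM in C40 cells and 418 and 357 CPM in I60 cells. It was higher than PBS in both lines, with ratios of pooled reads of 39239 (7042 to 1549890) in C40 and 45430 (8153 to 1794430) in I60. The ligand gene Tgm2 averaged 120 ± 12.5 CPM in PBS cells, 132 ± 24.7 CPM in C40 cells and 248 ± 85.2 CPM in I60 cells, and rose by 1.01 log2 units in I60 (limma adjusted p = 0.0304). The tetraspanin Cd9 averaged 459 ± 7.31 CPM in PBS cells, 395 ± 83.6 CPM in C40 cells and 243 ± 18.1 CPM in I60 cells, and fell by 0.92 log2 units in I60 (limma adjusted p = 0.0115). Cd81, with which GPR56 is also found, was 0.89 log2 units lower in I60 (log2 difference -0.89) and did not pass in limma (adjusted p = 0.0529), while edgeR (adjusted p = 0.0496), DESeq2 (0.0135) and limma after TMM scaling (0.0484) called it.

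Ligands of GPR126 were measured while the receptor was not detectable at this depth. The collagen IV genes Col4a1 and Col4a2 averaged 778 ± 49.5 and 751 ± 33.9 CPM in PBS cells, 378 ± 113 and 325 ± 63.7 CPM in C40 cells, and 231 ± 5.68 and 202 ± 7.67 CPM in I60 cells. Both fell in C40 (limma adjusted p = 0.0158 and 0.00397) and in I60 (limma adjusted p = 0.0014 and 0.000367). The laminin subunit gene Lamc1 rose by 0.91 log2 units in C40 (limma adjusted p = 0.00529) and by 0.78 in I60 (limma adjusted p = 0.00711), while Lama2 was under 1 CPM in every library. Lamb1 averaged 457 ± 86.7 CPM in PBS cells, 1006 ± 523 CPM in C40 cells and 778 ± 272 CPM in I60 cells. It passed in no comparison in limma (adjusted p of 0.11 to 0.718), while DESeq2 called it higher in C40 than in PBS (adjusted p = 0.0223). Schwann cell and oligodendrocyte markers (5 genes) summed to 75.5 and 79.3 CPM in PBS cells, 22.7 and 38.6 CPM in C40 cells, and 3.63 and 5.64 CPM in I60 cells, with 2 of 5 under 1 CPM in every library. Mbp carried these sums, averaging 75.9, 28.5 and 2.14 CPM in PBS, C40 and I60 cells, while Egr2 averaged 0.843, 0.988 and 1.63 CPM.

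For the latrophilins, the teneurin gene Tenm3 had 2 reads in both PBS libraries together and averaged 13.4 ± 3.65 CPM in C40 cells and 8.03 ± 2.24 CPM in I60 cells. It was higher than PBS in both lines, with ratios of pooled reads of 797 (220 to 6591) in C40 and 472 (130 to 3905) in I60. Flrt2 averaged 2.83 ± 1.68 CPM in PBS cells, 23.8 ± 0.27 CPM in C40 cells and 17.4 ± 3.88 CPM in I60 cells and rose in both (limma adjusted p = 0.00212 and 0.00307). Tenm4, the most abundant teneurin gene at 222 ± 42.8 CPM in PBS cells, passed in no comparison (limma adjusted p of 0.272 to 0.663). Flrt3 was measured at 26.6 and 5.39 CPM in PBS cells, 7.63 and 8.79 CPM in C40 cells, and 2.58 and 2.63 CPM in I60 cells. Its log2 difference in I60 against PBS was -2.02, which did not pass in limma (adjusted p = 0.054) and was called by edgeR (adjusted p = 0.0224) and DESeq2 (adjusted p = 0.000165).

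For GPR124, the co-receptor Reck rose and the Wnt ligands fell. Reck had 1 read in both PBS libraries together and averaged 2.13 ± 0.252 CPM in C40 cells and 2.88 ± 1.24 CPM in I60 cells. Its ratios of pooled reads to PBS were 249 (44.2 to 9865) in C40 and 339 (60.4 to 13436) in I60. Wnt7a was measured at 166 and 156 CPM in PBS cells, 19.4 and 54.3 CPM in C40 cells, and 2.08 and 0.313 CPM in I60 cells. Wnt7a groups did not overlap, and it fell by 2.29 log2 units in C40 (limma adjusted p = 0.0431), fell by 6.80 in I60 (limma adjusted p = 0.00031) and fell by 4.51 in I60 against C40 (limma adjusted p = 0.00531). Wnt7b averaged 533 ± 46.4 CPM in PBS cells, 344 ± 47.6 CPM in C40 cells and 166 ± 3.28 CPM in I60 cells, and fell in C40 (limma adjusted p = 0.0377), in I60 (limma adjusted p = 0.000452) and in I60 against C40 (limma adjusted p = 0.00994). The Wnt co-receptors Lrp5 and Lrp6 and the Frizzled gene Fzd4 passed in no comparison in limma, while DESeq2 called Fzd4 higher in C40 than in PBS (adjusted p = 0.0281).

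For GPR125, the scaffold gene Dlg1 averaged 217 ± 6.87 CPM in PBS cells, 105 ± 15.2 CPM in C40 cells and 96.5 ± 15.1 CPM in I60 cells, and fell by 1.05 log2 units in C40 (limma adjusted p = 0.00854) and fell by 1.18 in I60 (limma adjusted p = 0.00383). The Wnt effector gene Dvl2 averaged 46.5 ± 10.6 CPM in PBS cells, 92.4 ± 1.504 CPM in C40 cells and 64.5 ± 2.57 CPM in I60 cells, and rose in C40 (limma adjusted p = 0.0141). Dvl1 and Dvl3 passed in no comparison.

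**Figure D4:**
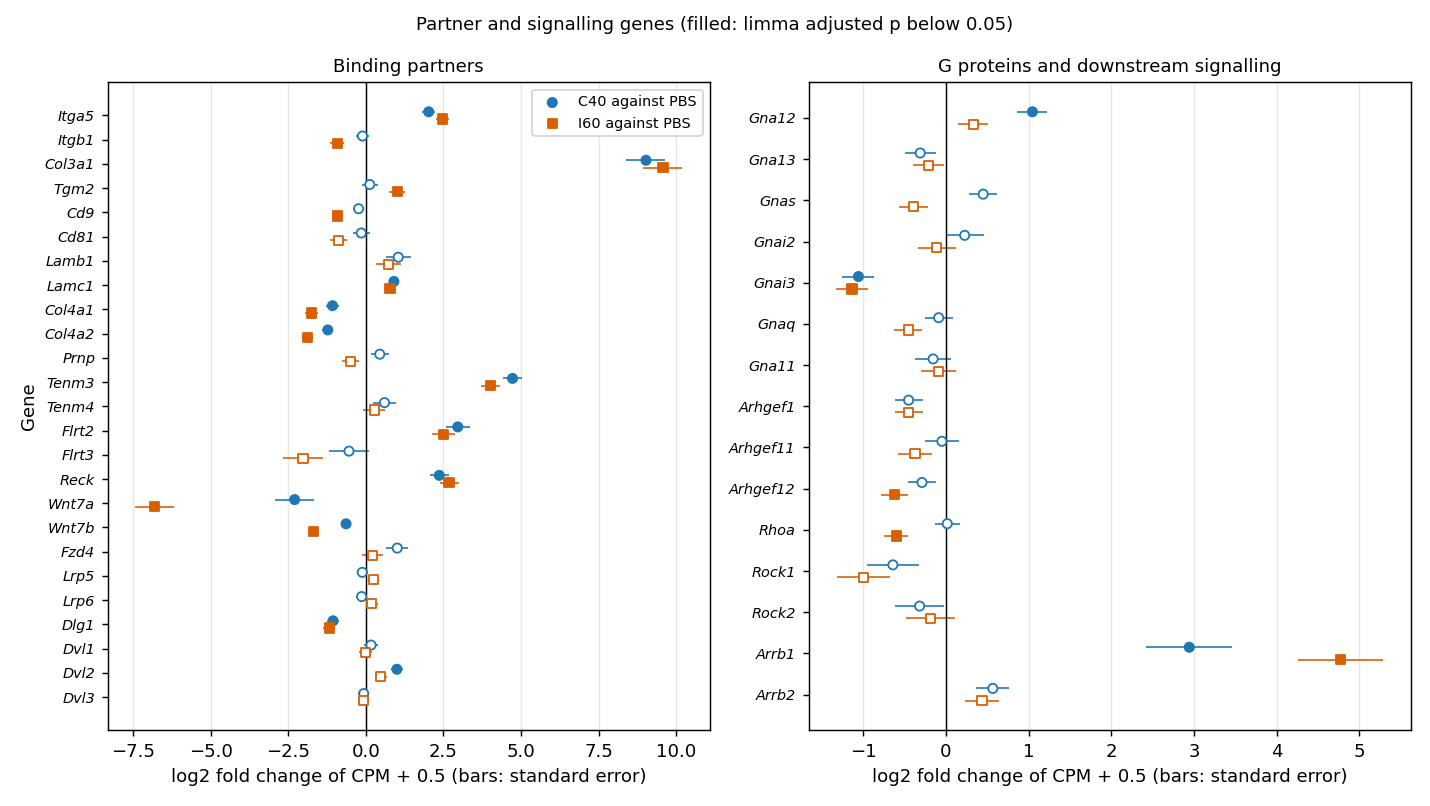
log2 fold change of CPM + 0.5 of the partner and signalling genes that passed the filter, in C40 against PBS and I60 against PBS. Col3a1, Tenm3, Reck, Flrt2, Itga5 and Arrb1 lie above 0 in both, and Wnt7a, Wnt7b, Col4a1, Col4a2, Dlg1 and Gnai3 lie below 0 in both.

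Of 16 signalling genes 15 passed the filter. Limma called 2 higher and 1 lower in C40 against PBS, 1 higher and 3 lower in I60 against PBS, and 2 lower in I60 against C40, with median log2 differences of -0.09, -0.37 and -0.32. The shares called were 13.3% higher and 6.67% lower in C40 against PBS, and 6.67% higher and 20% lower in I60 against PBS, beside 11.2% and 9.02%, and 13.9% and 13.1%, of all genes. For I60 against C40 they were 0% higher and 13.3% lower, beside 3.51% and 5.73% of all genes. The medians over all genes tested were -0.02, -0.002 and 0.02. Arrb1, which encodes an arrestin that takes activated receptors from the membrane, was measured at 4.85 and 2.27 CPM in PBS cells, 49.3 and 17.1 CPM in C40 cells, and 114 and 95.7 CPM in I60 cells. The groups did not overlap, and it rose by 2.94 log2 units in C40 (limma adjusted p = 0.00834) and by 4.77 in I60 (limma adjusted p = 0.000676). The inhibitory G protein gene Gnai3 averaged 219 ± 48.0 CPM in PBS cells, 104 ± 9.07 CPM in C40 cells and 98.5 ± 0.0547 CPM in I60 cells, and fell in both (limma adjusted p = 0.00988 and 0.00534).

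Of the G proteins named above, Gna12 averaged 43.2 ± 4.98 CPM in PBS cells, 89.7 ± 9.18 CPM in C40 cells and 54.4 ± 3.01 CPM in I60 cells, and rose by 1.05 log2 units in C40 (limma adjusted p = 0.00795), while Gna13 passed in no comparison (limma adjusted p of 0.276 to 0.82). Rhoa averaged 311 ± 5.33 CPM in PBS cells, 315 ± 5.71 CPM in C40 cells and 205 ± 17.0 CPM in I60 cells, and fell by 0.60 log2 units in I60 against PBS (limma adjusted p = 0.0242) and fell by 0.62 in I60 against C40 (limma adjusted p = 0.0471). Arhgef12 fell by 0.62 log2 units in I60 against PBS (limma adjusted p = 0.033). Gnas was lower in I60 than in C40 (log2 difference -0.84, limma adjusted p = 0.0257), with neither line called against PBS.

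Several of these calls did not hold with 1 library left out, which also leaves fewer residual degrees of freedom. In I60 against PBS the calls of Itgb1, Cd9, Arhgef12 and Rhoa were lost with any PBS or I60 library left out (limma adjusted p of 0.0549 to 0.172), as were those of Tgm2 and Lamc1 without I60 replicate 2 or either PBS library (limma adjusted p of 0.0574 to 0.189). In C40 against PBS, leaving out either PBS library ended the calls of Lamc1, Col4a1, Dlg1, Wnt7a and Wnt7b (limma adjusted p of 0.0541 to 0.225). The C40 calls of Wnt7a and Wnt7b were lost in edgeR as well (adjusted p = 0.076 and 0.0608), and that of Wnt7a in DESeq2 (adjusted p = 0.114). Both were also lost without C40 replicate 1 and without a filter (limma adjusted p = 0.0963 and 0.059). Wnt7a was lost with a pseudocount of 0.1 too, and Wnt7b after TMM scaling, without either I60 library and with only the groups compared. Also in C40 against PBS, Dvl2, Gna12 and Gnai3 were lost without PBS replicate 1 and Arrb1 without PBS replicate 2. In I60 against C40, Rhoa was lost with any library out (limma adjusted p of 0.0607 to 0.258), in edgeR (adjusted p = 0.0826), after TMM scaling (limma adjusted p = 0.0673) and with either other filter or only the groups compared (limma adjusted p of 0.052 to 0.117). Gnas was lost with any but C40 replicate 1 out, Adgrl3 also without C40 replicate 2, and Wnt7b without either I60 library (limma adjusted p of 0.0556 to 0.192).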

How the data were processed

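RNA of 6 Py2T libraries, 2 per group, was measured by ribosomal RNA depletion and stranded sequencing, per the labels' protocols. The aligner STAR and the mouse build mm10 are named in the submitters' processing notes. The sources used here do not name the counting program, its annotation or its strand setting. For 24454 Entrez gene IDs the authors deposited CPM, with each library scaled to the same total. Reads that map to a near-identical copy or to an overlapping gene may have been split or lost in that counting, which cannot be seen from CPM.

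Dividing a library's values by its smallest step returned whole reads for 100% of values (tolerance 0.01), 48113692 to 60260520 per library. RefSeq (GRCm38.p6) gave symbols to 24374 IDs. The 7 receptors and all gene lists were chosen with earlier results of these data known. The 11524 genes that reached 1 CPM in 2 or more libraries were fitted with limma 3.58.1 (R 4.3.3) on log2(CPM + 0.5) with an intensity trend, all 6 libraries and 3 groups in 1 model (3 residual degrees of freedom), two-sided, with Benjamini-Hochberg adjustment over all genes fitted; a call is an adjusted p below 0.05. Counting intervals are exact 95% intervals of the ratio of pooled reads. Levels per kb divide CPM by the merged exons of GENCODE M21 transcripts. Genes named are the receptors, members of the lists, the 2 genes most like each receptor (predicted genes left out) and the nearest genes on the chromosome. The fit was tested on simulated data. Alternatives were pseudocounts of 0.1 and 1, no filter, a filter of 5 CPM, TMM scaling, edgeR 4.0.16 and DESeq2 1.42.0 on the recovered reads, only the groups compared, a replicate block and each library left out. On those reads edgeR called 1351 genes higher and 1016 lower in C40 against PBS, 1626 and 1484 in I60 against PBS, and 388 and 696 in I60 against C40.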

Additional observations from a re-analysis of the deposited data

Results flagged for a closer look

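Adgre5 and Adgrg1 lay on opposite sides of PBS in I60 and C40 cells, in every library of each group: the log2 difference between I60 and C40 was 5.33 for Adgre5 and 2.48 for Adgrg1. These differences are a description: the receptors were chosen with them known, so the calls that the fit over all genes gives for them are not read as a test. Among ligand genes, Prnp, which encodes the prion protein, a ligand of GPR126, lay below PBS in both I60 libraries (39.3 and 47.7 CPM). In PBS cells it was measured at 61.5 and 60.6 CPM. C40 replicate 1, at 62.1 CPM, was close to PBS, and only C40 replicate 2, at 112 CPM, stood well above. Prnp passed neither in C40 nor in I60 against PBS (limma adjusted p = 0.304 and 0.254). The log2 difference of -0.94 between I60 and C40 did not pass either (limma adjusted p = 0.105).

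Other genes differed between I60 and C40 in limma, which is the test of whether the effects of the 2 lines against PBS differ. The log2 difference of I60 against C40 was -3.21 for Celsr1, -2.07 for Adgrf5 and -1.34 for Adgrl3 among family genes. Among ligands it was -4.51 for Wnt7a and -1.04 for Wnt7b, and among signalling genes -0.842 for Gnas and -0.617 for Rhoa. All 7 were lower in I60 than in C40 cells. They come from 7 other family genes, 25 partner genes and 15 signalling genes tested. Of all genes tested, 3.51% were called higher and 5.73% lower. The receptors described were left out of this list beforehand, and of those 2 were called higher and 1 lower, so no direction is read from it. Rhoa was not called in edgeR (adjusted p = 0.0826), and the calls of Adgrf5, Adgrl3, Wnt7b, Gnas and Rhoa were each lost with some library left out.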

How the results depend on the processing

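Of 267 values of the receptors under the alternatives, 238 kept direction and side of the threshold, 19 lost the call, 5 gained one and 5 changed sign; of 2100 values of the other listed genes these were 1905, 87, 66 and 42. The 47 values that changed sign belong to 33 results, and 0 of these were called, before or after. The receptors were chosen on these differences, so that their calls say nothing of how firm they are. Of the 2 receptors called lower in C40 against PBS, 0 were called with a pseudocount of 1, without a filter and with only the groups compared, and 1 with a filter of 5 CPM, which Adgrg1 does not pass. Receptors called lower in I60 against PBS numbered 1 (Adgrl1) in DESeq2 and with only the groups compared, against 0 in limma; those called higher there numbered 2, and those called higher in I60 against C40 numbered 1, with the filter of 5 CPM.

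Among the other family genes, calls in C40 against PBS moved to 2 higher without a filter and 1 lower with a filter of 5 CPM; in I60 against PBS to 2 higher with only the groups compared and 2 lower with a filter of 5 CPM; and in I60 against C40 to 1 lower without a filter and with only the groups compared. In I60 against C40, partner and signalling genes called higher numbered 2 in DESeq2 and 2 with the replicate block, and those called lower 2 without a filter and 11 in DESeq2. Over all genes, those called lower in I60 against C40 numbered 1064 in DESeq2 and 418 with only the groups compared.

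With 1 library left out, calls over all genes ran between 549 and 1717 higher and 425 and 1750 lower in C40 against PBS, 756 and 2120 higher and 740 and 2070 lower in I60 against PBS, and 140 and 832 higher and 249 and 937 lower in I60 against C40. Receptors ran between 1 and 2 higher and 0 and 1 lower in C40 against PBS, and 2 and 3 higher and 0 and 1 lower in I60 against PBS. Other family genes ran between 1 and 2 higher in C40 against PBS, 0 and 2 higher in I60 against PBS, and 1 and 3 lower in I60 against C40. Partner and signalling genes ran between 1 and 6 lower in C40 against PBS, 6 and 14 lower in I60 against PBS, and 0 and 2 higher and 1 and 7 lower in I60 against C40. A group left with 1 library is assumed to vary like the others, and fewer libraries leave fewer residual degrees of freedom.

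With 1 library left out, the log2 difference lay on both sides of 0, in C40 against PBS, for Adgrl1 (-0.34 to 0.0899), Adgra3 (-0.013 to 0.43), Itgb1 (-0.32 to 0.10), Tgm2 (-0.063 to 0.32), Cd81 (-0.57 to 0.28), Flrt3 (-1.64 to 0.56), Dvl1 (-0.094 to 0.44), Gnai2 (-0.0896 to 0.55), Gnaq (-0.22 to 0.052), Gna11 (-0.39 to 0.083), Arhgef11 (-0.21 to 0.11), Rhoa (-5.5e-06 to 0.037) and Rock2 (-0.70 to 0.068). The same held in I60 against PBS for Adgra3 (-0.066 to 0.17), Fzd4 (-0.0196 to 0.45), Dvl1 (-0.13 to 0.10), Gna11 (-0.27 to 0.10) and Rock2 (-0.57 to 0.20). It held in I60 against C40 for Adgrl2 (-0.42 to 0.22), Adgra3 (-0.38 to 0.064), Adgra1 (-0.73 to 1.19), Col3a1 (-0.57 to 1.66), Lamb1 (-0.87 to 0.24), Tenm4 (-0.88 to 0.21), Reck (-0.067 to 0.70), Dlg1 (-0.28 to 0.037), Dvl1 (-0.45 to 0.083), Dvl3 (-0.014 to 0.017), Gna13 (-0.091 to 0.29), Gnai3 (-0.17 to 0.0093), Gna11 (-0.17 to 0.30), Arhgef1 (-0.068 to 0.073) and Rock2 (-0.13 to 0.40). With other settings, small differences changed sign as well: Dvl1 in I60 against PBS was 0.00134 after TMM scaling, and in I60 against C40 DESeq2 gave -0.00313 for Adgra1, -0.00834 for Dvl3 and -0.00564 for Arhgef1.

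The replicate numbers are shared between groups, but nothing says that they pair libraries; replicate differences correlated at 0.154 between PBS and C40, 0.105 between PBS and I60, and 0.438 between C40 and I60. With the replicate block, genes called numbered 1552 higher and 1301 lower in C40 against PBS, 1786 and 1708 in I60 against PBS, and 472 and 781 in I60 against C40. The block also brought calls for Cd81, Flrt3 and Lamb1 in I60 against PBS (limma adjusted p = 0.0282, 0.0347 and 0.0347). In C40 against PBS it brought calls for Fzd4 and Lamb1 (limma adjusted p = 0.034 and 0.0117). For I60 against C40 these were Tgm2, Gna12 and Arrb1 (limma adjusted p = 0.0228, 0.0422 and 0.012). TMM scaling shifted the median of all genes by 0.009, 0.011 and 0.003 log2 units. At 1 read per 0.0166 to 0.0208 CPM, Adgrg6 and the C40 levels of Adgre5 and Adgrg1 are limited by depth.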
